A study of Mus musculus with 2 samples.

Results

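The activin ligand genes Inhba and Inhbb, the activin antagonist gene Fst, the type II receptor genes Acvr2a and Acvr2b, and the developmental timing genes Lin28a, Lin28b and Hmga2 were followed by symbol through both single-cell libraries. All 8 were present among the 32285 genes of each library. The libraries were made from mouse cochleae at E16.5, 1 from embryos carrying Emx2Cre and the floxed Ptch1f/f alleles (the mutant) and 1 from wild-type embryos, both on a mixed 129/SvEv and C57BL/6N background. Each library pooled 8 cochleae, so neither animals nor cochleae can be told apart within it. Ptch1 encodes the receptor that restrains Hedgehog signalling, and Cre expression in the mutant was driven from Emx2, a gene of the cochlear epithelium that is also active in other tissues. The study asked how Ptch1 and Shh bear on marginal cells and the stria vascularis.

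Activins are dimers of inhibin beta subunits, encoded by Inhba and Inhbb, that bind the type II receptors ACVR2A and ACVR2B and act through SMAD2 and SMAD3. Follistatin, the product of Fst, binds activin and keeps it from its receptors. LIN28A and LIN28B are RNA-binding proteins that block maturation of let-7 microRNAs, let-7 represses Lin28a, Lin28b and the chromatin factor gene Hmga2, and in the cochlea activin, follistatin and LIN28B are known for setting when prosensory progenitors leave the cell cycle and differentiate.

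The mutant library held 12326 barcodes with 100135532 unique molecular identifiers (UMIs, counted molecules) and the wild-type library 6500 barcodes with 61130806 UMIs, of which 8670 mutant and 6108 wild-type barcodes were kept. Only 17 barcode sequences were shared between the kept barcodes of the libraries. Each genotype has 1 library, so no test was run, nothing could be checked against replicates, and genotype and library cannot be told apart. Intervals are exact 95% intervals that cover counting error only. Levels are given as CPM, UMIs of a gene per 1000000 UMIs summed over the barcodes of a class. The median epithelial barcode held 3735 UMIs in the mutant library and 7623 UMIs in the wild-type library. RNA of other lineages was also unequal, since 16.6% of mutant and 67.4% of wild-type epithelial barcodes held over 5 UMIs per 10000 from marker genes of other lineages (called mixed barcodes), so the main values are followed below by those without them. In epithelium Ptch1 stood at 184 CPM in the mutant and 30.2 CPM in the wild type, and the Hedgehog target gene Gli1 at 20.0 and 1.91 CPM in the same order. The deleted exons are not given in the sources used here, so Ptch1 counts from 3′ tags check neither the deletion nor the labels. Emx2 itself stood at 32.0 CPM in mutant and 18.3 CPM in wild-type epithelium.

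let-7 family sequences and their matches in the members are shown because they divide the 8 genes into the timing genes, which hold matches, and the activin genes, which hold none. Mature sequences from RefSeq (GRCm38.p6) are written with the seed, bases 2 to 8, in capitals.
mmu-let-7a-5p: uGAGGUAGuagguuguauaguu
mmu-let-7g-5p: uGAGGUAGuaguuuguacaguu
mmu-miR-98-5p: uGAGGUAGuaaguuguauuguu
The same seed, GAGGUAG, was found in let-7a, let-7b, let-7c, let-7d, let-7e, let-7f, let-7g, let-7i and miR-98. Its reverse complement, CTACCTC, was searched on the sense strand of the longest 3′ UTR that GENCODE vM21 (mm10) annotates for each gene. Hmga2, in a 3′ UTR of 3014 bases, held 4 matches. They are shown in 22-base windows with the match in capitals.
Hmga2 site 1: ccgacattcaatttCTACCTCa
Hmga2 site 2: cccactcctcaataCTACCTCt
Hmga2 site 3: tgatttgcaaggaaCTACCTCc
Hmga2 site 4: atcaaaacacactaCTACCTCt
In mm10, on the minus strand, these windows lie at chr10:120364224-120364245, chr10:120362987-120363008, chr10:120362549-120362570 and chr10:120361691-120361712. Lin28b, in a 3′ UTR of 4445 bases, also held 4.
Lin28b site 1: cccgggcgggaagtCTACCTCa
Lin28b site 2: atacttgttagtaaCTACCTCt
Lin28b site 3: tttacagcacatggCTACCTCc
Lin28b site 4: aatgatggcaccgaCTACCTCt
They lie on the minus strand at chr10:45381022-45381043, chr10:45378648-45378669, chr10:45378476-45378497 and chr10:45377060-45377081. In both genes site 1 lies close to the stop codon, 58 bases past it in Hmga2 and 36 bases past it in Lin28b, and is followed by an adenine, which extends the match by 1 base opposite the first base of the microRNA. Lin28a held 2 matches in 2775 bases, both followed by an adenine.

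Among 21042 genes with an annotated 3′ UTR, 9.02% held this heptamer. Longer 3′ UTRs held it more often, so genes between 0.8 times a member's length and the inverse of that factor are the closer background. Of 2439 genes of a length like that of Hmga2, 16.1% held a match and 0.123% held as many as Hmga2. For Lin28b, 24.4% of 1358 genes of like length held a match and 0.295% held as many. Fst, Inhba, Inhbb, Acvr2a and Acvr2b held no match in 3′ UTRs of 1514, 4492, 1857, 3481 and 1534 bases, which says only that these letters are not there. A match describes the sequence and was not measured as a site here, and mature microRNAs are not read by polyA libraries.

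**Figure D1:**
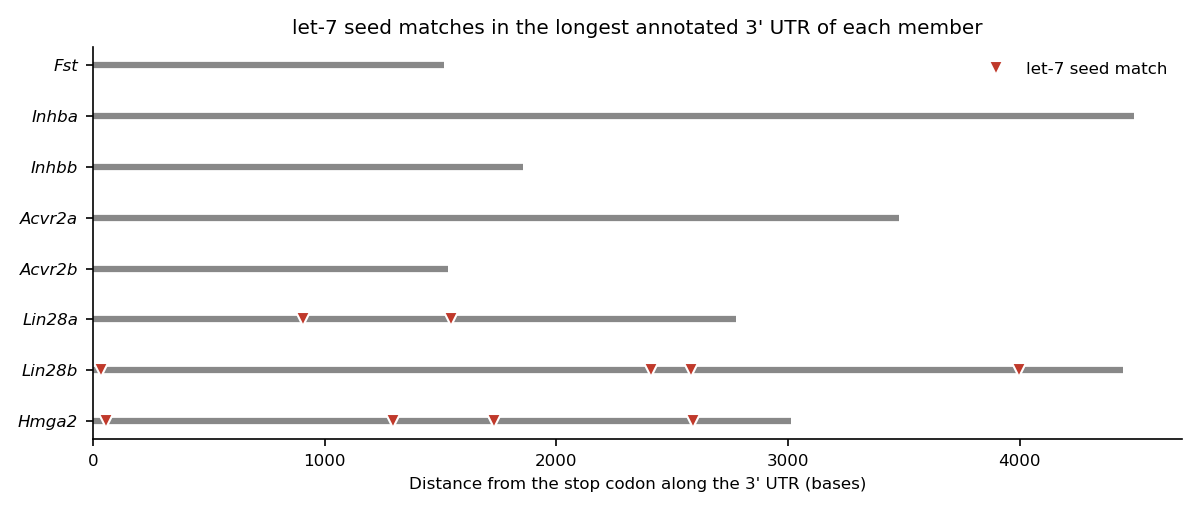
Matches to the let-7 seed (triangles) along the longest annotated 3′ UTR (grey bars) of each of the 8 genes, by distance from the stop codon in bases. Lin28a carries 2 matches and Lin28b and Hmga2 carry 4 each, and the 5 activin, follistatin and receptor genes carry none.

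The genes lie on 6 chromosomes of mm10. Fst (ENSMUSG00000021765) spans chr13:114452290-114458951 on the minus strand and Inhba (ENSMUSG00000041324) chr13:16011851-16031621 on the plus strand. Inhbb (ENSMUSG00000037035) spans chr1:119415465-119422248 on the minus strand, Acvr2a (ENSMUSG00000052155) chr2:48814109-48903269 and Acvr2b (ENSMUSG00000061393) chr9:119402118-119434995 on the plus strand. Lin28a (ENSMUSG00000050966) spans chr4:134003330-134018841, Lin28b (ENSMUSG00000063804) chr10:45376620-45486395 and Hmga2 (ENSMUSG00000056758) chr10:120361275-120476469, all on the minus strand. Only Hmga2 shares its strand with another annotated gene, Mir763.

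Before any split by cell type, the kept barcodes held very different numbers of UMIs of each gene. Hmga2 had 16012 UMIs in the mutant and 3748 UMIs in the wild type, and Fst 5630 and 3928. Acvr2a had 3029 UMIs in the mutant and 2068 in the wild type, Acvr2b 2921 and 1771, Lin28b 972 and 327, and Inhba 346 and 448. Inhbb, with 14 UMIs in the mutant and 18 in the wild type, and Lin28a, with 1 and 2, were too sparse to follow across cell types. In epithelium Inhbb had 0 UMIs in the mutant and 4 in the wild type, and Lin28a 0 and 1, where 3 UMIs would amount to 0.148 CPM in the mutant. Most Inhbb UMIs lay in mesenchyme, 14 in the mutant and 12 in the wild type.

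In the epithelium as a whole, Hmga2 and Lin28b were higher in the mutant and Inhba was lower. A gene with at least 10 UMIs over both libraries was called at a 2-fold difference or more after 1 CPM was added on each side. By that rule 2 of the 6 members measured were higher and 1 was lower, against 2.06% of 16232 genes called higher and 6.01% called lower. The members were chosen with earlier results of these data known, so these calls are not independent of that choice. The background also holds genes with few UMIs, which the added 1 CPM keeps from a call. The 6 members stood at 7.64 CPM or more in the mutant, so the 2 shares are not alike and are read no further. The lower call rests on 1 gene. All 6 are described by role.

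Inhba, the ligand gene, stood at 7.64 CPM (6.48 to 8.94) in mutant epithelium, against 19.8 CPM (17.7 to 22.1) in wild-type epithelium, a ratio of 0.385 (0.316 to 0.467). The count was low and clustered, with 155 UMIs in 73 mutant barcodes and 323 UMIs in 155 wild-type barcodes. Part of the wild-type level came from a sub-cluster of 59 wild-type barcodes led by the haemoglobin genes Hba-a1 and Hbb-bs, where Inhba reached 99.6 CPM. Its 10 leading genes also included Col1a1 and Inhba itself, while the wild-type erythroid class held 1 Inhba UMI, at 0.681 CPM. That sub-cluster has no epithelial subtype name and held 103 of the 323 wild-type UMIs. Without mixed barcodes Inhba stood at 7.51 CPM in the mutant and 15.9 CPM in the wild type, which is past 2-fold as a ratio (0.471) but not after 1 CPM was added (log2 of -0.99). In barcodes with a UMI of Epcam or Cdh1 the log2 ratio was -0.10 and the call was lost. It was also lost in barcodes without a UMI of the proliferation genes Mki67 or Top2a, at -0.49. Among the epithelial barcodes without a subtype name, 8 sub-clusters had a marker of another class or subtype among their 10 leading genes, with 46 mutant and 886 wild-type barcodes. The largest was led by the glial gene Fabp7, Mgp and the mesenchymal gene Otor, and another by the neuronal genes Sncg and Stmn3. Leaving out all 8 lost the Inhba call, at -0.72, and gave log2 ratios of 0.71 for Fst, 1.55 for Lin28b and 1.96 for Hmga2.

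Fst stood at 197 CPM (191 to 203) in mutant epithelium and 104 CPM (99.1 to 109) in wild-type epithelium, a ratio of 1.90 (1.79 to 2.01) that fell short of the 2-fold call. Its UMIs came from few barcodes, since 391 of 2063 mutant and 381 of 1555 wild-type barcodes held any, and the 5 highest barcodes held 29.2% of the mutant and 18.2% of the wild-type UMIs. Which barcodes were counted moved this ratio more than that of any timing gene. On the log2 scale it was 0.92 over all barcodes, 0.96 without mixed barcodes, 0.54 at a finer clustering, 0.32 among barcodes with Epcam or Cdh1, 2.59 without mixed barcodes by a broader set of marker genes, and 2.13 when suspected doublets were kept and the clusters made anew. In that new clustering a cluster of 86 mutant and 408 wild-type barcodes was named mesenchyme and so not counted as epithelium. It was led by Bmp4, and Lmo3, Gata2 and Fst were among its 10 leading genes. Its part in the value of 2.13 was not tested.

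The receptor genes differed less. Acvr2a stood at 75.7 CPM (71.9 to 79.6) in mutant and 43.4 CPM (40.2 to 46.7) in wild-type epithelium, a ratio of 1.74 (1.59 to 1.91), and Acvr2b at 72.0 CPM (68.4 to 75.8) and 53.5 CPM (49.97 to 57.1), a ratio of 1.35 (1.24 to 1.47). Both were below 2-fold. Unlike Fst they were spread over many barcodes, the 5 highest holding 5.21% of mutant Acvr2a UMIs and 5.75% of mutant Acvr2b UMIs.

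Lin28b stood at 40.9 CPM (38.2 to 43.8) in mutant epithelium, against 10.9 CPM (9.39 to 12.7) in wild-type epithelium, a ratio of 3.74 (3.18 to 4.42). Hmga2, the let-7 target gene, stood at 679 CPM (668 to 691) in mutant and 142 CPM (137 to 148) in wild-type epithelium, a ratio of 4.78 (4.57 to 4.99). Both remained past 2-fold under every processing alternative run, with log2 ratios between 1.52 and 2.12 for Lin28b and between 1.83 and 2.67 for Hmga2. Without mixed barcodes Lin28b stood at 42.2 CPM in the mutant and 13.0 CPM in the wild type, and Hmga2 at 694 and 154 CPM.

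Depth was levelled by thinning each barcode to 2000 UMIs, which left out 683 of the shallow mutant epithelial barcodes and none of the wild type. At that depth Hmga2 was detected in 45.9% of mutant and 16.46% of wild-type epithelial barcodes, and Lin28b in 6.81% and 1.74%. Fst was detected in 13.9% of mutant and 10.6% of wild-type barcodes, and Inhba in 1.59% and 2.83%. Before thinning the shares in mutant and wild-type epithelium were 52.5% and 38.3% for Hmga2, 19.2% and 9.52% for Lin28b, 19.0% and 24.5% for Fst, and 3.54% and 9.97% for Inhba. The order of the genotypes for Fst thus turned round between the 2 ways of counting. Thinning changed both the depth and the set of mutant barcodes, so the turn cannot be laid to depth alone. The Fst share is read no further. No class is sure to lack all of these genes. Erythroid barcodes, with median depths of 38403 UMIs in the mutant and 9649 UMIs in the wild type, are given for comparison, although LIN28B and HMGA2 are known in fetal erythroid cells. At 2000 UMIs they gave Hmga2 in 0% of 51 mutant and 4.50% of 111 wild-type barcodes, and Fst in 1.96% and 1.80%. Neither Lin28b nor Inhba was seen in any of them at that depth, which allows shares of up to 5.88% in the mutant and 2.70% in the wild type, as it does for Hmga2 in the mutant. Unthinned, 15.3% of wild-type erythroid barcodes held an Fst UMI, and 90.1% of them were mixed.

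**Figure D2:**
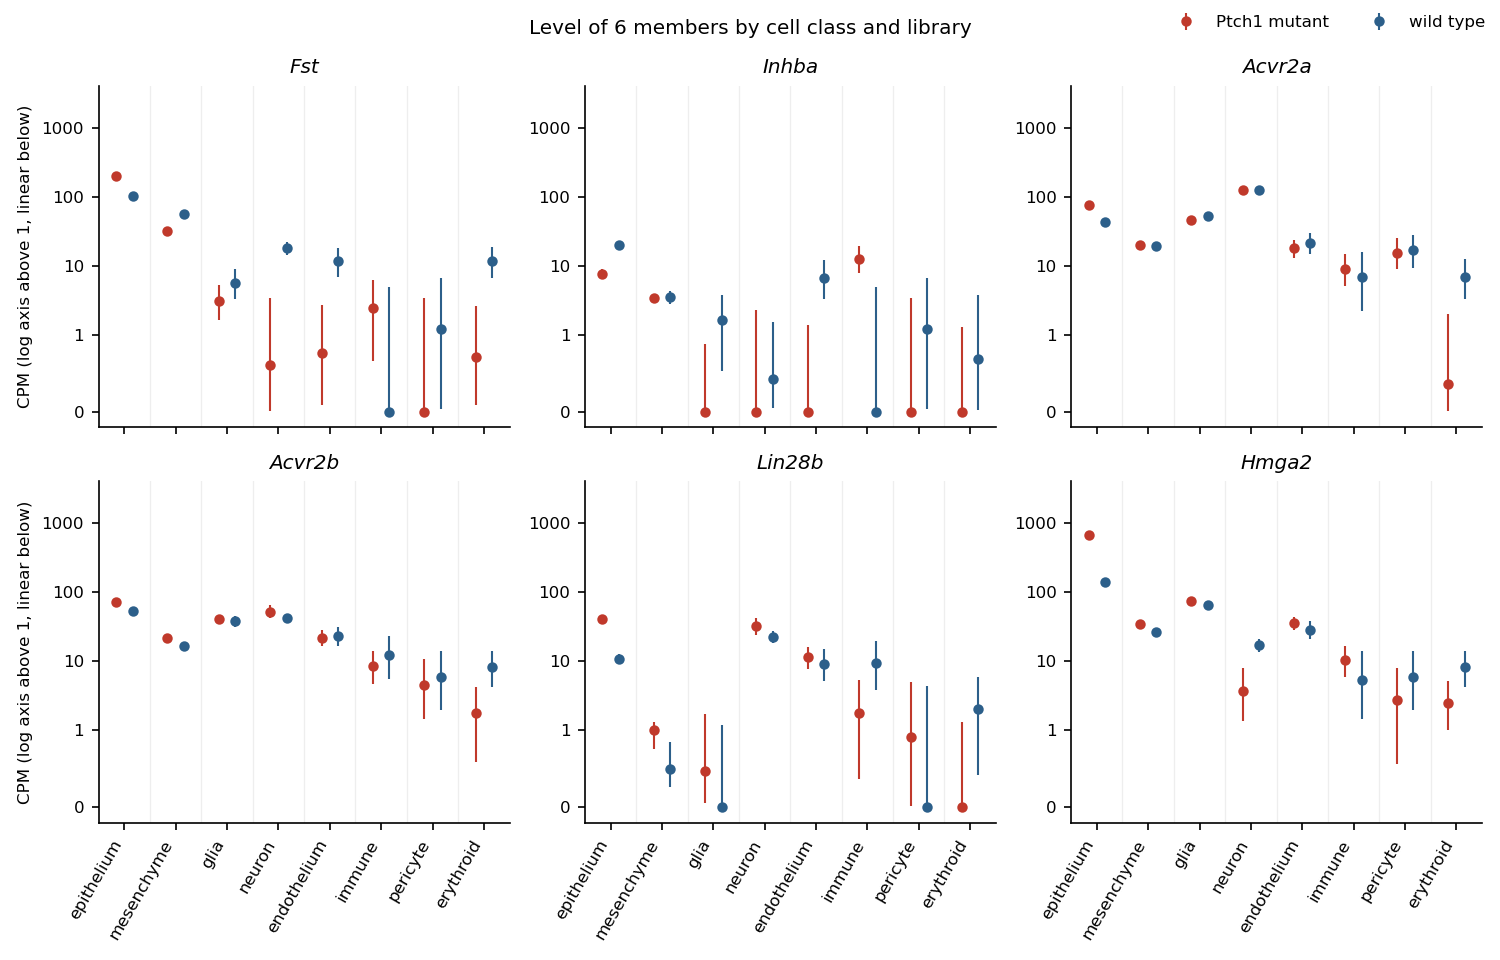
Level of 6 genes in CPM (log axis above 1, linear below) in 8 cell classes, with the mutant left (red) and the wild type right (blue); points are 1 library each and bars are 95% Poisson intervals of counting error. Hmga2 and Lin28b stand apart between the libraries in epithelium, at 679 and 142 CPM and at 40.9 and 10.9 CPM, while Acvr2a in neurons is at 127 CPM in both.

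Within the epithelium the members differed by subtype. Sub-clusters were made without the members or any marker gene and then named from markers. The 1 named prosensory (Sox2, Hey2, Jag1, Fgf20 and others, the progenitors of hair and supporting cells), led by Glb1l2, Vstm2b, Fst and Fgf20, held 263 mutant and 19 wild-type barcodes. A further sub-cluster of 163 wild-type barcodes had the prosensory genes Prox1 and Fgfr3 among its leading genes, but also the macrophage genes C1qa and C1qb behind Cxcl2 and ahead of Prox1, and stayed unnamed. Medial barcodes, with tectorial membrane genes of Kölliker's organ such as Tecta and Otoa, numbered 427 in the mutant and 404 in the wild type. Summed medial markers were high in prosensory barcodes too, at 2706 CPM in the mutant and 3512 CPM in the wild type. In medial barcodes they stood at 3093 and 5032 CPM. Summed prosensory markers stood at 1552 and 2089 CPM in prosensory and at 246 and 276 CPM in medial barcodes. Hair cells (119), and lateral barcodes with Bmp4, Gata2 and Lmo3 (70), were found almost only in the wild-type library, with 2 mutant barcodes each. Barcodes of roof (275) and dividing cells (476) were mostly mutant, with 12 and 27 in the wild type. Shallow sub-clusters held 192 of these mutant roof and 294 of these mutant dividing barcodes. Median depths in the mutant were 2425 UMIs in roof and 3144 UMIs in dividing barcodes. The shallowest wild-type barcode held 3352 UMIs, so these counts are not read as a difference in cell numbers. No ratio by genotype was taken for hair cells, lateral, roof or dividing barcodes, and that of prosensory barcodes rests on the 19 of the wild type.

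Fst had a wide range across subtypes. In the mutant it stood at 765 CPM (740 to 792) in prosensory barcodes, 88.2 CPM (78.8 to 98.5) in roof, 19.5 CPM (15.6 to 23.9) in dividing and 6.18 CPM (4.40 to 8.45) in medial barcodes. No 2 of these intervals overlapped, but they do not cover the spread between barcodes. The 5 highest barcodes held 34.8% of the Fst UMIs in prosensory, 38.1% in roof, 62.2% in dividing and 64.1% in medial barcodes. In the wild type the highest level lay elsewhere, in lateral barcodes at 808 CPM (755 to 863), with 171 CPM (128 to 224) in the 19 prosensory barcodes, 36.0 CPM (26.5 to 47.7) in hair cells and 9.33 CPM (6.88 to 12.4) in medial barcodes. Mixed barcodes made up 88.2% of the hair cells and 45.7% of the lateral barcodes. Without them Fst stood at 716 CPM in 38 lateral barcodes, and 14 hair cells held 1 UMI, at 4.01 CPM, so the hair cell level is not read further. The wild-type lateral barcodes had 9.14 CPM of the progenitor gene Sox2, and the mutant prosensory barcodes 428 CPM.

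Hmga2 followed the same order in part. In the mutant it stood at 1804 CPM (1765 to 1844) in prosensory, 537 CPM (516 to 559) in dividing, 479 CPM (457 to 503) in roof and 172 CPM (162 to 183) in medial barcodes. These intervals of counting error did not overlap. The 5 highest barcodes held 16.7% of the Hmga2 UMIs in prosensory, 18.6% in dividing, 30.0% in roof and 22.0% in medial barcodes. Wild-type levels were 708 CPM (659 to 760) in lateral, 618 CPM (532 to 712) in prosensory, 46.6 CPM (40.9 to 52.9) in medial barcodes and 32.2 CPM (23.3 to 43.4) in hair cells. Lateral and prosensory barcodes overlapped within their intervals, as did medial barcodes and hair cells. Without mixed barcodes the lateral level was 501 CPM and that of hair cells 72.2 CPM, on 18 UMIs. In the 27 wild-type dividing barcodes Hmga2 stood at 500 CPM (437 to 569), which overlapped with the mutant dividing level. The 5 highest of them held 66.1% of these UMIs. Without mixed barcodes the dividing levels were 536 CPM in the mutant and 544 CPM in the wild type. The 12 wild-type roof barcodes had 115 CPM (64.2 to 189), on 15 UMIs, below the mutant roof level.

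Lin28b had a narrower range. In the mutant it stood at 92.2 CPM (83.4 to 102) in prosensory, 42.8 CPM (37.1 to 49.2) in dividing, 23.9 CPM (20.3 to 28.1) in medial and 15.1 CPM (11.4 to 19.7) in roof barcodes. In the wild type it stood at 15.4 CPM in medial, 13.1 CPM in prosensory, 10.96 CPM in lateral barcodes and 6.00 CPM in hair cells, on 4 UMIs in prosensory barcodes, and only medial barcodes (12.2 to 19.1) and hair cells (2.59 to 11.8) had intervals apart. Without mixed barcodes Lin28b had 4 UMIs in lateral barcodes and 0 in hair cells. Inhba stood at 19.4 CPM in mutant prosensory barcodes and 2.85 CPM in mutant medial barcodes. In the wild type it stood at 39.4 CPM (20.4 to 68.9) in prosensory barcodes, on 12 UMIs, at 39.3 CPM (28.4 to 52.9) in lateral barcodes and at 4.08 CPM in medial barcodes. Acvr2a and Acvr2b were found in every subtype with at least 50 barcodes, Acvr2a at 130 CPM and Acvr2b at 105 CPM in mutant prosensory barcodes.

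**Figure D3:**
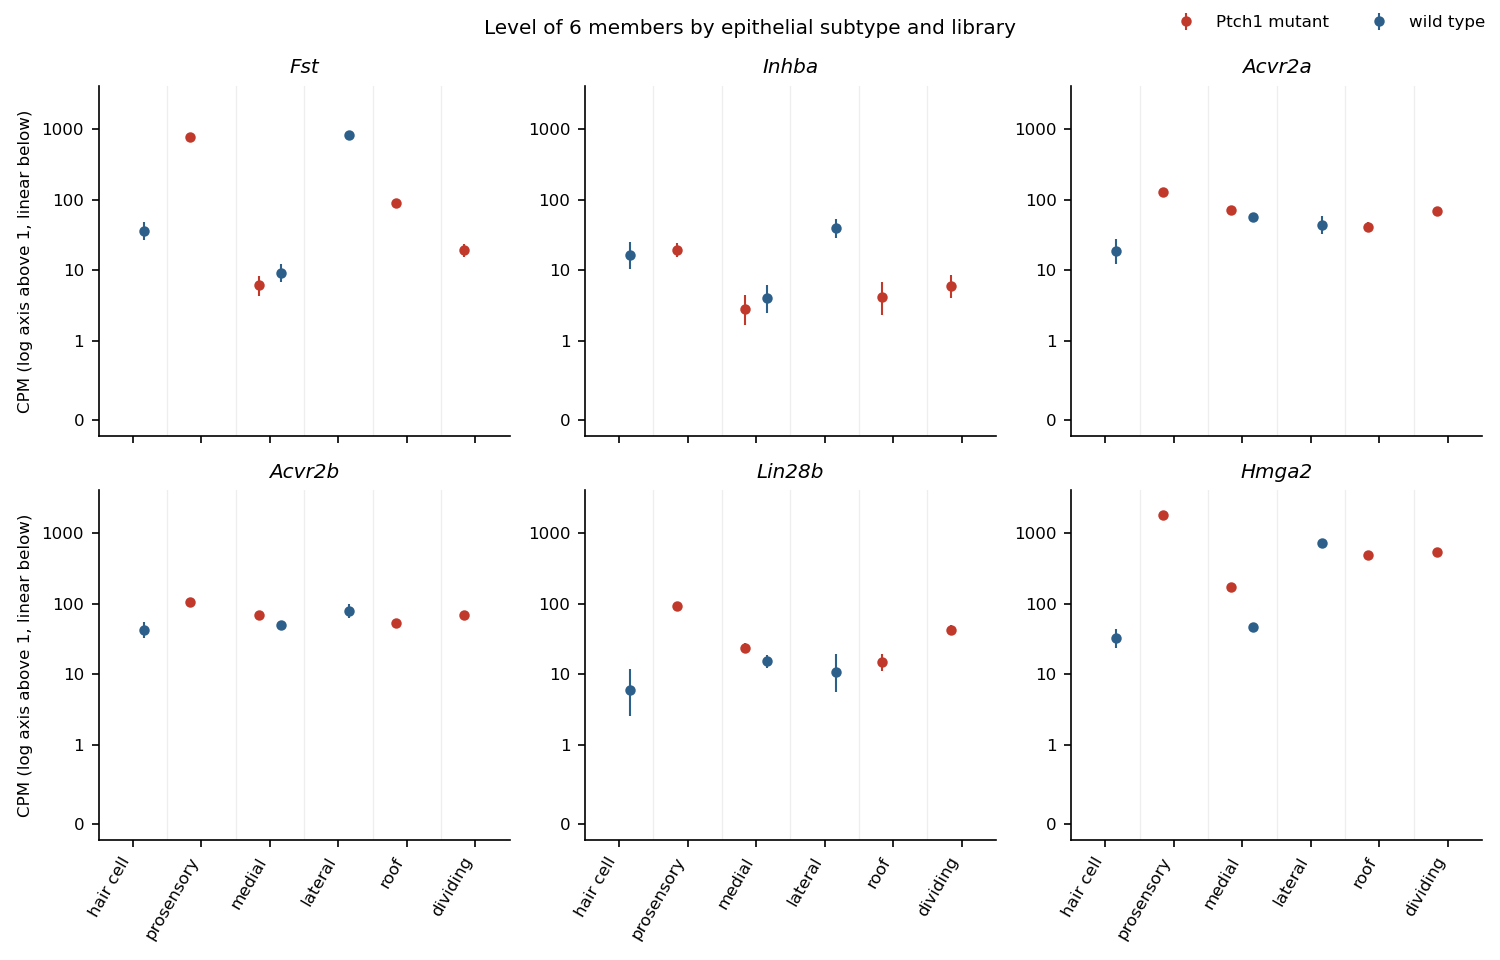
Level of 6 genes in CPM (log axis above 1, linear below) in epithelial subtypes with at least 50 barcodes in a library, mutant left (red) and wild type right (blue), with 95% Poisson intervals of counting error. The 19 wild-type prosensory barcodes are left out. Fst is at 765 CPM in mutant prosensory and 808 CPM in wild-type lateral barcodes and below 10 CPM in medial barcodes of both.

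In the prosensory sub-cluster Fst, Lin28b and Hmga2 were higher in the mutant by over 2-fold. Fst stood at 765 CPM in the mutant and 171 CPM in the wild type, a ratio of 4.48 (3.41 to 6.01). Lin28b stood at 92.2 CPM in the mutant and 13.1 CPM in the wild type, a ratio of 7.02 (2.72 to 25.9), and Hmga2 at 1804 and 618 CPM, a ratio of 2.92 (2.53 to 3.39). Acvr2a, at 130 and 78.8 CPM, Acvr2b, at 105 and 88.7 CPM, and Inhba, at 19.4 and 39.4 CPM, were not called. The Inhba ratio of 0.492 was past 2-fold only before 1 CPM was added. In all, 3 of 6 members were called higher and 0 lower, against 19.2% of 12286 genes called higher and 4.68% called lower. The median log2 ratio of all genes was 0.17.

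The wild-type values rest on few barcodes, of which 1 held 39 of 52 Fst UMIs and 1 held 96 of 188 Hmga2 UMIs, and the intervals cover counting error only. In barcodes without a UMI of Mki67 or Top2a, 217 in the mutant and 18 in the wild type, the log2 ratio was 3.69 for Fst and 2.22 for Hmga2, against 2.16 and 1.55 over all. Other prosensory genes were unequal too, with Fgf20 at 123 CPM in the mutant and 23.0 CPM in the wild type, Hey2 at 168 and 49.3 CPM, Fgfr3 at 4.79 and 125 CPM and Prox1 at 18.9 and 263 CPM, while Sox2 stood at 428 and 463 CPM. Mixed barcodes were few, 5.70% in the mutant and 5.26% in the wild type, and median depths were 9098 and 9070 UMIs.

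Wider sets of barcodes kept the direction of these 3 genes but moved the size. Adding the 163 wild-type barcodes of the sub-cluster with macrophage genes gave Fst at 765 CPM in the mutant and 55.3 CPM in the wild type, a ratio of 13.8, Lin28b a ratio of 7.50 and Hmga2 a ratio of 7.25. In those added barcodes 98.2% were mixed. Their summed macrophage markers stood at 367 CPM, with 7 of 8 markers at 10 CPM or more, and their summed mesenchymal markers at 2930 CPM, with 10 of 10. In mutant prosensory barcodes these sums were 4.56 and 361 CPM, with 0 of 8 and 4 of 10 markers at that level. The part of this RNA in the wider ratios was not tested. Taking instead all epithelial barcodes with a Sox2 UMI, 653 in the mutant and 548 in the wild type, gave log2 ratios of 2.06 for Fst, 2.19 for Lin28b, 2.55 for Hmga2 and 0.86 for Acvr2a, with Inhba called lower at -1.56. Of those barcodes 10.1% were mixed in the mutant and 76.6% in the wild type.

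At 2000 UMIs, Hmga2 was detected in 89.7% of mutant prosensory barcodes and in 7 of the 19 wild-type ones, Fst in 46.7% and in 2 of 19, and Lin28b in 18.8% and in 0 of 19, which allows a share of up to 15.8%. Unthinned, the shares were 96.6% and 68.4% for Hmga2, 72.2% and 36.8% for Fst and 62.0% and 21.1% for Lin28b. In wild-type lateral barcodes, 71.4% held Fst and 74.3% held Hmga2 at 2000 UMIs. In the mutant 84.4% of thinned barcodes with Fst held Hmga2, against 39.7% of those without Fst. In the wild type the shares were 47.3% and 12.8%. Within mutant prosensory barcodes the shares with and without Fst were 93.4% and 86.3%, closer to each other than over the whole epithelium.

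In medial barcodes only Hmga2 was past 2-fold. It stood at 172 CPM in the mutant and 46.6 CPM in the wild type, a ratio of 3.70 (3.21 to 4.27), and this was the 1 call among 6 members, against 2.86% of 13638 genes called higher and 1.97% called lower. Mixed barcodes were few here, 5.39% in the mutant and 9.90% in the wild type, and without them Hmga2 stood at 173 and 46.3 CPM. Median depths were also close, at 10040 and 8792.5 UMIs. Mutant medial barcodes came mainly from sub-clusters led by Otoa and Smoc2 (50.6%) and by Dqx1 and Msc, and wild-type ones from a sub-cluster led by Epyc and Calb1 (65.3%). Within each of the 3 the order was the same, with Hmga2 at 40.6 CPM in the mutant and 13.4 CPM in the wild type in the Otoa sub-cluster, 369 and 185 CPM in the Dqx1 sub-cluster, and 99.6 and 46.8 CPM in the Epyc sub-cluster. The intervals of mutant and wild type were apart in each, though the Dqx1 sub-cluster had 22 wild-type barcodes and the Epyc sub-cluster 22 mutant barcodes. These intervals do not cover the spread between barcodes. Lin28b, at 23.9 and 15.4 CPM, had a ratio of 1.56 (1.18 to 2.07). Fst, at 6.18 and 9.33 CPM, and Inhba, at 2.85 and 4.08 CPM, had ratios whose intervals held 1.

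Hmga2 in medial barcodes also differed with proliferation. In barcodes with a UMI of Mki67 or Top2a it stood at 250 CPM in the mutant and 77.3 CPM in the wild type, and in those without at 106 and 37.4 CPM. The share of medial barcodes with such a UMI was 32.3% in the mutant and 14.9% in the wild type. Hmga2 was therefore higher in the mutant on either side of that split, with a log2 ratio of 1.48 in the barcodes without. Over the whole epithelium barcodes with such a UMI made up 31.1% in the mutant and 50.2% in the wild type. That share varies with depth, since mutant barcodes with such a UMI had a median of 10145 UMIs and those without 2567. The dividing subtype had the other order, with 476 mutant and 27 wild-type barcodes, but 294 of the mutant ones lay in a shallow sub-cluster. The deeper dividing sub-cluster held 182 mutant and 27 wild-type barcodes. The share over the whole epithelium is therefore not read as a share of dividing cells.

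In mesenchyme Fst had the opposite order. It stood at 31.7 CPM (30.2 to 33.3) in the mutant and 55.8 CPM (52.9 to 58.7) in the wild type, a ratio of 0.569 (0.529 to 0.611). No member was called there in either direction, against 0.449% of 16687 genes called higher and 0.617% called lower. Mesenchymal Fst came mainly from 1 cluster, led by Penk, Gdf10, Col8a1 and Eln, which held 1311 of 1588 mutant and 1119 of 1459 wild-type UMIs. Unlike the epithelial sub-clusters, these clusters were made without leaving out the members, so Fst itself could help to form them. Within it Fst stood at 265 CPM (251 to 280) in the mutant and 453 CPM (427 to 480) in the wild type, so the order was the same inside that cluster. The cluster had 628 mutant and 354 wild-type barcodes. A second cluster, led by Car3, Otor and Ogn, had 13.6 CPM in the mutant and 48.5 CPM in the wild type. In another, led by Apod, Foxd1 and Col3a1, the levels of 39.2 and 28.0 CPM overlapped within their intervals.

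**Figure D4:**
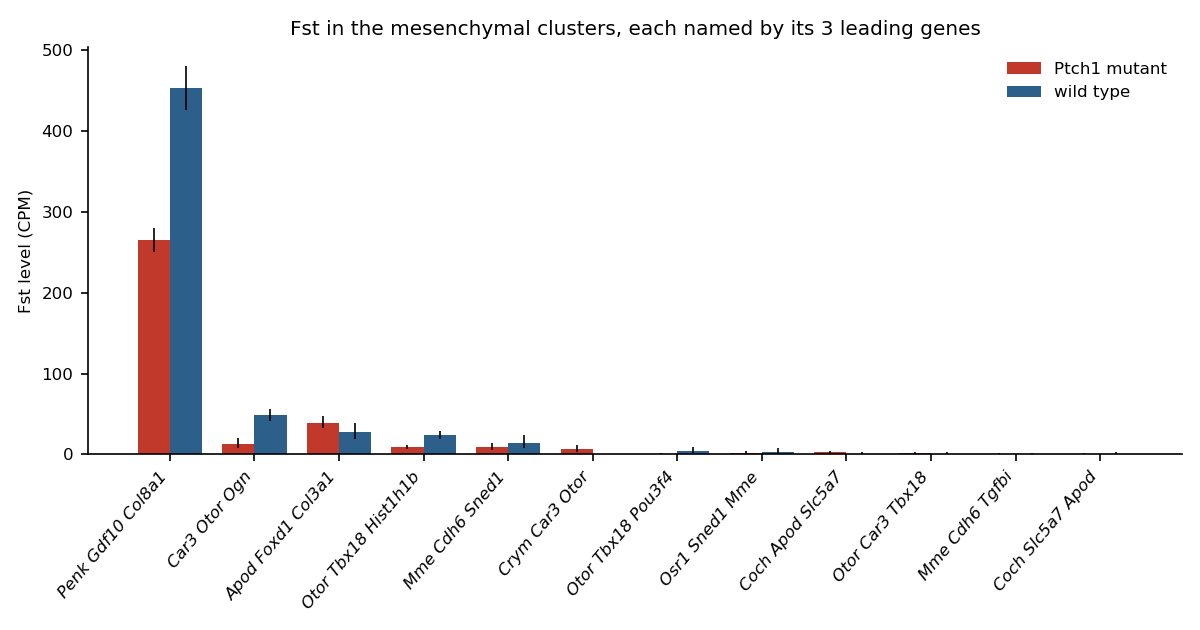
Fst level in CPM in the mesenchymal clusters with at least 50 barcodes in a library, named by their leading genes, for the mutant (red, left) and the wild type (blue, right), with 95% Poisson intervals. The cluster led by Penk and Gdf10 has 265 CPM in the mutant and 453 CPM in the wild type, and all others are below 50 CPM.

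Mesenchymal Fst was lower in barcodes with a UMI of Mki67 or Top2a. It stood at 12.9 CPM with and 47.5 CPM without such a UMI in the mutant, and at 28.5 and 77.3 CPM in the wild type. Like Fst, the other members did not pass 2-fold by the call rule in mesenchyme. Inhba stood at 3.39 CPM in the mutant and 3.52 CPM in the wild type, Acvr2a at 20.0 and 19.2 CPM, Acvr2b at 22.0 and 16.4 CPM and Hmga2 at 34.5 and 26.8 CPM. The ratios of Acvr2b, 1.34 (1.20 to 1.51), and Hmga2, 1.29 (1.18 to 1.41), had intervals above 1. With doublets kept and the clusters made anew, the log2 ratio of Hmga2 was -0.59 in place of 0.36. That mesenchyme included a cluster of 86 mutant and 408 wild-type barcodes led by Bmp4, with the lateral genes Lmo3 and Gata2. In the main clustering Lin28b was low in mesenchyme, at 1.02 and 0.497 CPM, on 51 and 13 UMIs, a ratio of 2.05 (1.10 to 4.11) that was not past 2-fold after 1 CPM was added. In the mutant Inhba was highest in a cluster led by Osr1, at 18.2 CPM, where the wild type had 8.25 CPM (4.26 to 14.4). The wild-type level in the cluster led by Car3, Otor and Ogn overlapped with that, at 8.18 CPM (5.48 to 11.8).

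In glia no member was called, against 2.16% of 12436 genes called higher and 1.47% called lower. Hmga2 stood there at 75.6 CPM in the mutant and 65.6 CPM in the wild type, Acvr2a at 45.9 and 52.1 CPM and Acvr2b at 40.9 and 37.9 CPM, and all 3 ratios had intervals that held 1. The Hmga2 level of glia lay below that of epithelium in each library. Its ratio of 1.15 (0.962 to 1.38) and the epithelial 4.78 (4.57 to 4.99) did not overlap in counting error, and the difference between the classes was not tested.

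Neurons had the highest Acvr2a level of the classes with at least 50 barcodes, 127 CPM (110 to 145) in the mutant and 127 CPM (117 to 137) in the wild type, a ratio of 1.00 (0.850 to 1.17). Without mixed barcodes it was 123 CPM in the mutant and 175 CPM in the wild type. Lin28b stood at 32.6 CPM in mutant and 22.6 CPM in wild-type neurons, higher than in mesenchyme or glia of the same library. Of the members measured, 0 were called higher and 2 lower, against 2.59% and 13.3% of 13109 genes. These were Fst, at 0.615 CPM in the mutant and 17.9 CPM in the wild type, and Hmga2, at 3.69 and 17.1 CPM. The class held 68 mutant and 428 wild-type barcodes, of which 7.35% and 80.4% were mixed. Without mixed barcodes wild-type neurons held 3 Fst UMIs and 1 Hmga2 UMI, too few for a call.

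Endothelium gave the same picture for Fst, at 0.760 CPM in the mutant and 11.6 CPM in the wild type, and for Inhba, with 0 UMIs and 11 UMIs. Both were called lower, against 9.65% of 11623 genes called lower and 2.63% called higher. Mixed barcodes made up 5.04% of mutant and 55.3% of wild-type endothelium, and without them 2 Fst UMIs were left in each library and no Inhba UMI. In an immune cluster, led by the neutrophil genes S100a8 and S100a9 and holding macrophage markers, Inhba had 21 UMIs in the mutant and 0 in the wild type, and was called higher, against 7.71% of 10293 genes. Only 6 of 170 mutant barcodes carried it, at 12.7 CPM, and 3 UMIs in the 71 wild-type barcodes would amount to 4.08 CPM. Lin28b, at 3 UMIs in the mutant and 7 in the wild type, was called lower there, against 3.64%. Without mixed barcodes Lin28b had too few UMIs for a call, at 2 and 5, and Hmga2 was called higher, on 12 and 0 UMIs. Fst had 4 UMIs in the mutant and 0 in the wild type in that cluster, and 17 and 0 in melanocytes, where 2 of 23 mutant barcodes held them all. No member was called in pericytes, where 4.13% of 10233 genes were called higher and 3.62% lower.

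**Figure D5:**
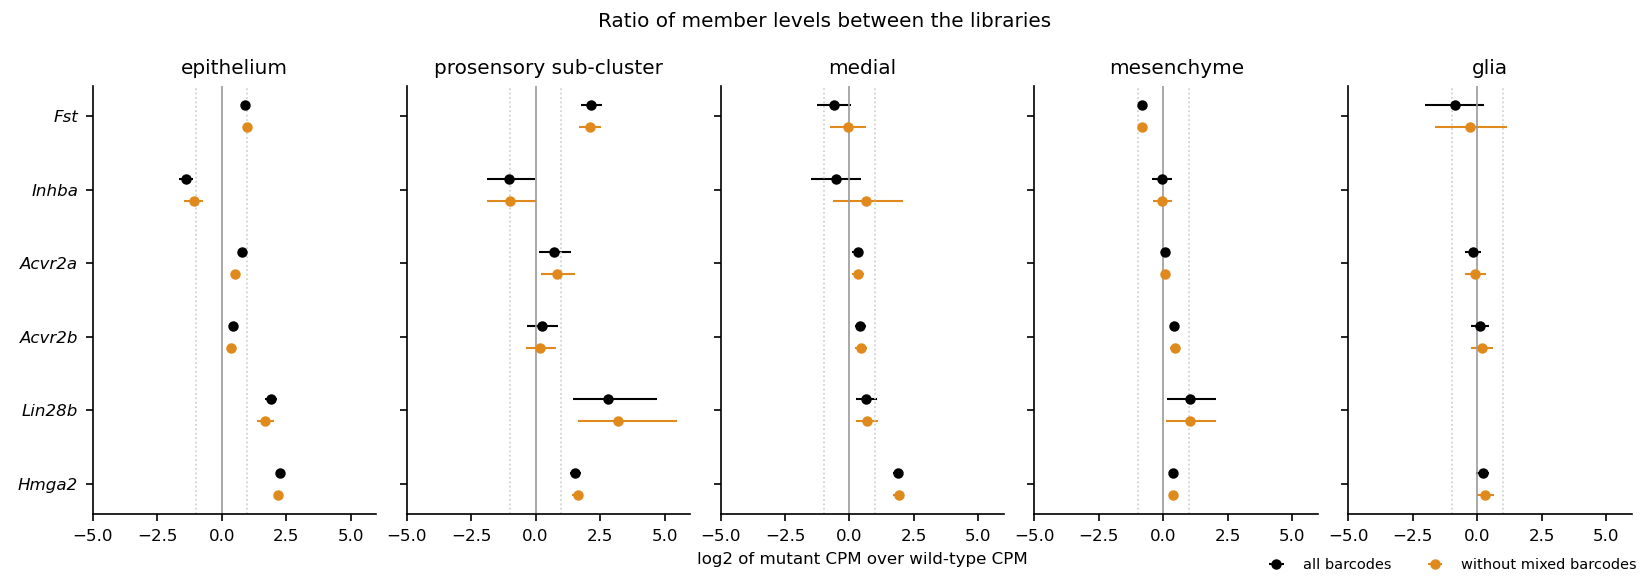
Log2 ratio of mutant over wild-type CPM, without an added CPM, for 6 genes in 5 classes, over all barcodes (black) and without mixed barcodes (orange), with exact 95% intervals of counting error; dotted lines mark 2-fold, and genes under 10 UMIs are left out. Hmga2 lies right of 2-fold in epithelium, the prosensory sub-cluster (19 wild-type barcodes) and medial barcodes both ways and near 0 in glia, and Fst lies right of 0 in the prosensory sub-cluster and left of 0 in mesenchyme.

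One wild-type cluster of 60 barcodes stayed unnamed, since its leading genes included Tac1, Clu, Krt8 and Fst as well as the cartilage gene Matn1. Fst stood there at 439 CPM (405 to 474) and was detected in all 60 barcodes, and Hmga2 stood at 249 CPM (224 to 276). Its median depth was 21776 UMIs and all its barcodes were mixed. Adding it to the wild-type epithelium lowered the epithelial log2 ratio of Fst to 0.58 and that of Hmga2 to 2.16.

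In epithelium 1 gene of the wider pathway lists was called higher and 2 were called lower. Of 24 other activin pathway genes, 17 had enough UMIs in epithelium, of which 0 were called higher and 1 lower, against 2.06% and 6.01% of all genes, with a median log2 ratio of -0.32 against 0.03 over all genes. The gene called lower was the type I receptor gene Acvr1c, at 0.0985 CPM in the mutant and 1.41 CPM in the wild type, on 2 and 23 UMIs. The highest ratios after 1 CPM was added were those of Tgif1, which encodes a SMAD corepressor, at 72.5 and 48.4 CPM, Smad3, at 16.6 and 11.7 CPM, and the inhibin alpha gene Inha, at 9.41 and 6.76 CPM. Smad2 stood at 55.5 CPM in the mutant and 49.2 CPM in the wild type. Skil, a repressor of SMAD activity, at 46.9 and 76.6 CPM, the inhibitory pseudoreceptor gene Bambi, at 22.9 and 37.6 CPM, and Fstl1, at 447 and 686 CPM, came next to Acvr1c at the low end after 1 CPM was added, none past 2-fold. In prosensory barcodes 0 of 14 measured activin genes were called, against the 19.2% and 4.68% given above.

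Of 25 LIN28 and let-7 pathway symbols, which also held older names of Tut4 and Tut7, 20 were in the files and measured in epithelium. There 1 was called higher and 1 lower, against 2.06% and 6.01% of all genes, with a median log2 ratio of 0.38. Hmga1, a relative of Hmga2, stood at 16.9 CPM in the mutant and 5.78 CPM in the wild type, and the cyclin gene Ccnd2 at 59.9 and 152 CPM. Mycn, at 48.5 and 25.9 CPM, and the RNA-binding protein gene Igf2bp1, at 90.5 and 55.9 CPM, came next to Hmga1, and Trim71, at 9.21 and 10.1 CPM, and Nras, at 108 and 109 CPM, next to Ccnd2. Hmga1 was also called higher in mesenchyme, at 15.9 and 6.50 CPM, in glia, at 26.1 and 8.57 CPM, and in medial barcodes, at 15.5 and 3.89 CPM, so its difference was not limited to the epithelium. In prosensory barcodes 2 of 20 were called higher and 0 lower, against the same 19.2% and 4.68%. These were Hmga1, on 49 UMIs in the mutant and 0 in the wild type, and Ccnd2, on 73 and 1. The uridylyltransferase genes Tut4, at 222 and 221 CPM, and Tut7, at 97.8 and 94.8 CPM, which act with LIN28 on let-7 precursors, were near equal in epithelium.

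Genes with patterns most like each member were found by Pearson's r of log2(CPM + 1) over 21 class or subtype levels with at least 50 barcodes, among 11058 candidates. These levels share libraries, depth and mixed RNA, and the values are descriptions. Fst was most like Sbspon (0.87), Emx2os (0.87), Igfbp5 (0.87), Tmc4 (0.86) and Ptpru (0.85). Inhba was most like Cobl (0.85), Ptpru (0.81), E330013P04Rik (0.79), Tmprss3 (0.79) and Fst (0.79). Lin28b was most like Cyb561 (0.89), Ccdc88c (0.89), Dmtn (0.86), Wipf3 (0.86) and Prr15 (0.86), and Hmga2 most like Gm10115 (0.90), Rassf10 (0.90), BC006965 (0.88), Prtg (0.87) and Noxo1 (0.87). Acvr2a was most like Agap1 (0.95) and Gpr137c (0.94), and Acvr2b most like Zfp976 (0.96) and Unc13b (0.95).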

How the data were processed

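Per the labels' protocols, E16.5 cochleae were digested for 30 min, and 10x Genomics 3′ libraries were made with 1 kit version, but the versions given with the samples differ. In the deposited matrices each value is a raw UMI count of 1 gene in 1 barcode, not normalized. Cell Ranger 6.0.0 and mm10 are named per the submitters' processing notes, and per the file headers the mutant counts came from Cell Ranger 5.0.1 and the wild-type counts from 6.0.0. The cell-calling rule was not given in the sources used here, and the shallowest barcode has 500 UMIs in the mutant and 3352 in the wild type.

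Filters of 1000 UMIs, 500 genes and a mitochondrial share of up to 10% passed 9373 mutant and 6440 wild-type barcodes. Scrublet called 0 doublets by its automatic threshold in each library, so the top-scored 0.8% per 1000 cells were removed, 703 mutant and 332 wild-type barcodes. Joint clustering used scanpy 1.11.5 (igraph 0.11.9, Python 3.11.15, 2000 variable genes, 30 components, 15 neighbours, Leiden resolution 1), without correction between libraries. The members and markers were left out only for the epithelial sub-clusters, so a member could help to form the classes and the other clusters. Clusters were named from listed markers, by a rule settled after the data were seen. Macrophage markers share their cluster with neutrophil genes. A sub-cluster with leading markers of another class or subtype, at least as many as of its own, stayed unnamed. So did a cluster with a depth under 0.333 of the library median and no marker of its own among its 10 leading genes. By this depth rule sub-clusters of 183, 88 and 301 mutant barcodes stayed unnamed. Those of 183 and 88 scored highest for prosensory markers and were not added when the wild-type sub-cluster with macrophage genes was. Epithelial barcodes without a subtype name, 618 mutant and 904 wild-type, stayed in the epithelium.

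UMIs were summed per library and class. Intervals are exact (Poisson for levels, conditional binomial for ratios, from scipy 1.17.1). The ratio code was checked on simulated data. Alternatives covered scaling, the UMI minimum, the added CPM, depth, doublets, clustering and mixed barcodes. The mixed-barcode gene set was trimmed from 46 to 32 genes after the data were seen, because the first set marked most wild-type epithelium. The members, lists and markers were chosen with earlier results of these data known. Named genes were the members, Ptch1, Gli1 and Emx2, pathway genes and the nearest genes by pattern; of the pathway lists, those with the 3 highest and 3 lowest epithelial log2 ratios (1 CPM added) on at least 30 UMIs were named, and the other pathway genes given were chosen after their values were seen.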

Additional observations from a re-analysis of the deposited data

Results flagged for a closer look

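Fst had opposite orders of genotype in different classes. The ratio of mutant over wild-type level was 1.90 in epithelium and 4.48 in the prosensory sub-cluster, where the wild type had 19 barcodes, and 0.569 in mesenchyme. With the wild-type sub-cluster that also holds macrophage genes, the prosensory ratio was 13.8. The difference between classes was not tested, since each genotype has 1 library. The direction of the epithelial level ratio was the same in the alternatives run on levels, and in mesenchyme likewise. The share of epithelial barcodes with Fst changed its order on thinning, which also left out the shallower mutant barcodes. It was 13.9% in the mutant and 10.6% in the wild type at 2000 UMIs and 19.0% and 24.5% unthinned.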

How the results depend on the processing

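Of 292 log2 ratios recomputed under alternatives, 237 stayed within the counting interval and 55 moved more; no called value changed sign. Of 32 shares of barcodes taken at other depths, 26 moved beyond their interval. The 1 member called lower in epithelium was 0 with 5 CPM added, among barcodes with Epcam or Cdh1, without mixed barcodes (trimmed set), without the 8 sub-clusters that hold markers of another class or epithelial subtype and without barcodes holding Mki67 or Top2a. The 0 called lower in prosensory barcodes became 1 without mixed barcodes (first set), among Sox2 barcodes and without Mki67 or Top2a. In glia 0 called lower became 1 with no UMI minimum, with doublets kept and without Mki67 or Top2a, and in mesenchyme 1 with doublets kept. With doublets kept, the mesenchyme included the cluster led by Bmp4 that holds lateral genes. In medial barcodes 1 called higher became 2 without mixed barcodes by the first set. With that set, which left 750 mutant and 83 wild-type epithelial barcodes, the epithelial log2 ratio was 2.59 for Fst and -2.13 for Inhba, and medial Inhba, not called before at -0.40, was 1.87. The cause of these moves was not tested. The trimmed set, the rule for sub-clusters with markers of another class or subtype, the Sox2 barcodes, the unnamed cluster and the barcodes without Mki67 or Top2a were chosen after seeing the data. Leaving out a replicate was not possible with 1 library per genotype. No paired analysis was possible because each genotype has 1 library. The 3 UMIs of Lin28a, and the 32 of Inhbb over both libraries, limit what can be read at this depth.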
